A study of Mus musculus with 36 samples.

Results

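The 10 genes described here encode liver enzymes that make taurine and handle methionine, homocysteine and betaine. They were taken by gene symbol on an Illumina MouseRef-8 v2.0 beadchip, an array with 1 fluorescence intensity per probe, and were chosen on results of these same arrays, so that the lower Csad and higher Bhmt of mice on the HF diet were known when the genes were picked. The 10 genes had 13 of the 25697 probes, and 12 of the 13 were among the 12289 probes bright enough to be tested. The probe left out was the second probe of Cth. Where a gene had more than 1 probe, its brightest probe is given first.

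Liver RNA came from 36 male C57BL/6 mice (C57BL/6J in the study's methods) killed at 9 weeks of age after a short fast. Dams ate LF, low in fat and high in carbohydrate, or HF, high in fat and low in carbohydrate, from before mating until weaning, and the pups were then assigned to LF or HF. Both diets held coconut oil as the main fat and the same share of casein as protein. Groups are named by maternal diet and then post-weaning diet. There were 9 LF_LF mice (4 birth cages), 8 LF_HF mice (4), 9 HF_LF mice (5) and 10 HF_HF mice (4). The 12 birth cages held 17 mice of LF dams and 19 of HF dams, and 5 cages held pups of both post-weaning diets. Mice of a group are separate animals, but many were cage mates, so that an error over mice is an error over partly related animals.

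Methionine is activated to S-adenosylmethionine, the methyl donor of the cell, by the enzyme that Mat1a encodes in hepatocytes. Methyl transfer, for example to glycine by GNMT or to guanidinoacetate by GAMT, leaves S-adenosylhomocysteine, which AHCY splits to homocysteine. Homocysteine is either returned to methionine, in liver partly by BHMT with betaine as methyl donor, or passed through CBS and CTH to cysteine, from which CDO1 and CSAD lead to taurine, the amino acid that mouse liver joins to bile acids.

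The 3 genes with the widest contrasts between groups are Csad, Bhmt and Cbs, and their promoters are shown so that their sequences can be set beside their values. Promoters of 7 of the 10 genes were matched in RefSeq, with 8 windows from 250 bases before to 50 bases after a transcription start on GRCm38.p6, each printed 5′ to 3′ on the gene's strand. Capitals mark matches, on either strand, to AGGTCA (a short nuclear receptor motif), CACGTG (an E-box), CCAAT or TATAAA, and no base lay in more than 1 match. Csad is on the minus strand of chromosome 15 and has windows at chr15:102205003-102205302 and chr15:102188994-102189293. The Bhmt window is chr13:93637709-93638008 and the Cbs window is chr17:31637156-31637455, both also minus strand.
Csad, upstream start: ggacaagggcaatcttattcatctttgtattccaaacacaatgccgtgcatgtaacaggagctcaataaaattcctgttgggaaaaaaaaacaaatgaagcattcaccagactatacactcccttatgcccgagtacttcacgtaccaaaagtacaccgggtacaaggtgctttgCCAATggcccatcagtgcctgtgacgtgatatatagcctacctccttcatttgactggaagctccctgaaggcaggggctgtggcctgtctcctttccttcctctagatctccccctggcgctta
Csad, downstream start: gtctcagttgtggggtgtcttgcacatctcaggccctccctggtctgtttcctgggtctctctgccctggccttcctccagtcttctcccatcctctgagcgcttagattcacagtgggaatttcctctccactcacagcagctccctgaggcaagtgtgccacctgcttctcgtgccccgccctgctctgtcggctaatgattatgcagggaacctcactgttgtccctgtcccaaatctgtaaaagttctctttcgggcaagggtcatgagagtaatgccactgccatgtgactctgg
Bhmt: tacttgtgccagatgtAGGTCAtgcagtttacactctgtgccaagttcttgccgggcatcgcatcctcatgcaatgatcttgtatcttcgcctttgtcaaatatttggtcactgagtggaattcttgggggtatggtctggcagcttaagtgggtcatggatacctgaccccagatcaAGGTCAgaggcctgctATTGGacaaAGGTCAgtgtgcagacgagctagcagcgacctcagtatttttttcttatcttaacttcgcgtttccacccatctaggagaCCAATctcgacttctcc
Cbs: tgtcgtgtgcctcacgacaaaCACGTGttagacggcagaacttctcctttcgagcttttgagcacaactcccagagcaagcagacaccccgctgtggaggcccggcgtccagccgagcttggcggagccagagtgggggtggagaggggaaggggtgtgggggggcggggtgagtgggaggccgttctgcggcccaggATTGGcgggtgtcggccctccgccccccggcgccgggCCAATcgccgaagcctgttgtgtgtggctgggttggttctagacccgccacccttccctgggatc

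The Bhmt window held 3 AGGTCA matches, and 60 of the 32851 promoters of this length (0.183%) held 3 or more, against 16.3% that held at least 1. It also held 2 CCAAT matches, which 37.4% of promoters hold at least once. The Cbs window held 1 CACGTG, found in 7.15% of promoters, and 2 CCAAT matches. Of the Csad windows, the upstream one held 1 CCAAT match and the downstream one none of the motifs searched. TATAAA, in 13.6% of promoters, was in none of the 8 windows. Ahcy and Gnmt held 1 AGGTCA match each, and the windows of Bhmt2 and Gamt held none of the motifs searched. A match to these letters does not show that a factor binds there.

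The arrays had a median correlation with the other arrays of 0.979 to 0.991 over tested probes. The lowest was that of HF_HF replicate 1, the only HF_HF mouse of cage 10, with the next array at 0.9801. That mouse also had the highest Bhmt, Cbs and Cdo1 and the lowest Gamt of the 10 HF_HF mice, and the differences and relations it moved most are given with and without it. As these are whole livers, fewer cells of a type and less RNA per cell cannot be told apart.

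Csad was lower in mice weaned onto HF, whichever diet the dam had. CSAD, cysteine sulfinic acid decarboxylase, makes hypotaurine, the direct precursor of taurine. Its normalized intensity (lowest, median, highest) was 811, 2226 and 2772 in LF_LF and 457, 727 and 922 in LF_HF. With HF dams it was 1013, 2110.0 and 3030.1 in HF_LF and 406, 726 and 961 in HF_HF. Among pups of HF dams the groups did not overlap. Among pups of LF dams 7 of 8 LF_HF mice lay below every LF_LF mouse, and 1 LF_LF mouse, at 811, lay within the LF_HF range.

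On the log2 scale Csad was lower by 1.39 ± 0.19 (SE) in LF_HF than in LF_LF, a 2.62-fold difference with a 95% interval of -1.79 to -0.99 on the log2 scale. In pups of HF dams the log2 difference was -1.63 ± 0.21, or 3.10-fold lower on HF, with a 95% interval of -2.07 to -1.19. The groups that shared a post-weaning diet lay close together. HF_LF minus LF_LF was 0.15 ± 0.23 (95% interval -0.33 to 0.63) and HF_HF minus LF_HF was -0.09 ± 0.17 (-0.45 to 0.27). By mean log2 intensity the order was HF_LF (10.99), LF_LF (10.84), LF_HF (9.45) and HF_HF (9.36), and of these neighbours only LF_LF and LF_HF lay apart by more than their spread.

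**Figure D1:**
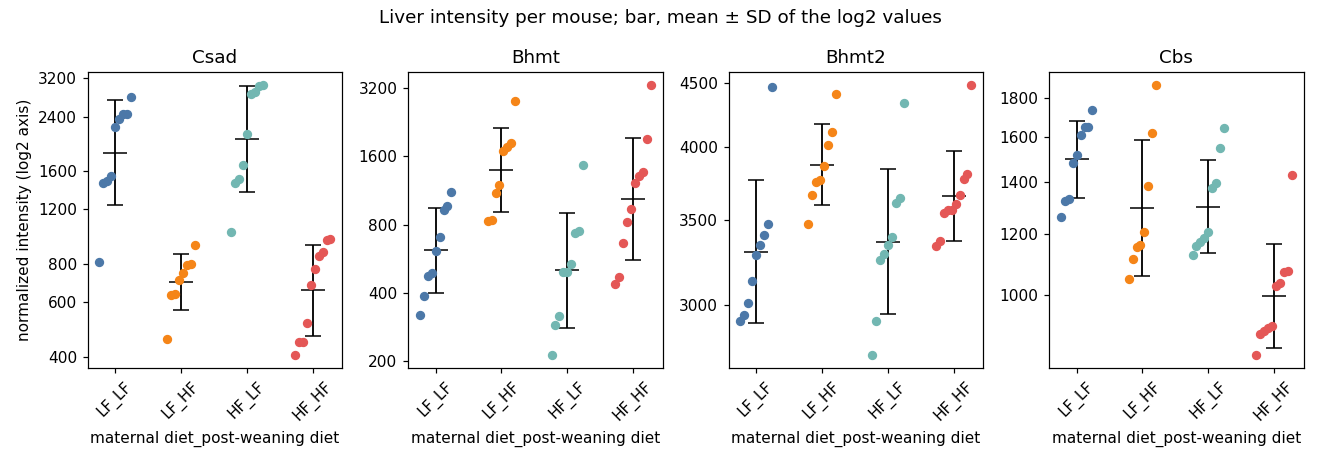
Normalized liver intensity (log2 axis) of Csad, Bhmt, Bhmt2 and Cbs in each mouse by maternal and post-weaning diet (9, 8, 9 and 10 mice); bars are the mean ± SD of log2 values. Csad is at or below 961 in every mouse on HF, and at or above 811 in every mouse on LF.

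Cdo1, which encodes cysteine dioxygenase, the step before CSAD, did not share this pattern. Its intensity ranged from 8364 to 13251 in LF_LF, 8855 to 12992 in LF_HF, 9272 to 13172 in HF_LF and 8636 to 15328 in HF_HF, so that all groups overlapped. The log2 difference between post-weaning diets was -0.07 ± 0.09 in pups of LF dams (95% interval -0.26 to 0.11) and -0.11 ± 0.10 in pups of HF dams (-0.31 to 0.08, and -0.175 without HF_HF replicate 1). These intervals lie far from the differences seen for Csad. The maternal diet differences of Cdo1 were 0.04 ± 0.08 on LF and 0.00 ± 0.10 on HF (-0.06 without that mouse).

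Bhmt was higher on HF in both maternal groups and varied widely between mice. BHMT transfers a methyl group from betaine to homocysteine. Intensity (lowest, median, highest) was 321, 614 and 1110.5 in LF_LF and 831, 1445 and 2806 in LF_HF. It was 214, 494 and 1458 in HF_LF and 439.9, 1078 and 3273 in HF_HF. Both pairs of groups overlapped. All 8 LF_HF mice lay above the LF_LF median, and 5 lay above every LF_LF mouse, whereas in pups of HF dams 8 of 10 HF_HF mice lay above the HF_LF median and 2 above every HF_LF mouse.

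The log2 difference of Bhmt was 1.18 ± 0.26 in pups of LF dams, 2.26-fold, with a 95% interval of 0.65 to 1.71. In pups of HF dams it was 1.04 ± 0.34, 2.06-fold, with an interval of 0.33 to 1.76, and 0.86 without HF_HF replicate 1. The maternal differences were -0.29 ± 0.30 on LF and -0.42 ± 0.32 on HF, and both intervals held 0 (-0.91 to 0.33 and -1.09 to 0.24). The one on HF was 0.01 without cage 20, -0.20 without cage 11 and -0.61 without HF_HF replicate 1. By mean log2 intensity the order was LF_HF (10.44), HF_HF (10.02), LF_LF (9.27) and HF_LF (8.97).

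Bhmt2 lies beside Bhmt on chromosome 13 and encodes a methyltransferase that uses S-methylmethionine to remethylate homocysteine. On its other side lies Dmgdh, for dimethylglycine dehydrogenase, which oxidizes the product that BHMT leaves of betaine and which is read from the opposite strand. Bhmt2 intensity (lowest, median, highest) was 2911, 3285 and 4469 in LF_LF and 3477, 3819 and 4411 in LF_HF. It was 2736, 3348 and 4343 in HF_LF and 3342, 3585 and 4482 in HF_HF. All groups overlapped, although every LF_HF mouse lay above the LF_LF median. The post-weaning difference was 0.23 ± 0.07 from LF dams (95% interval 0.08 to 0.38) and 0.12 ± 0.07 from HF dams (-0.03 to 0.27), so that the interval of Bhmt2 lay wholly below that of Bhmt in each comparison.

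Cbs, for cystathionine beta-synthase, which commits homocysteine to cysteine, was lowest in mice that had HF from both dam and diet. Intensity (lowest, median, highest) was 1260.5, 1519.7 and 1737 in LF_LF, and 1048, 1184 and 1867 in LF_HF. It was 1127, 1209 and 1644 in HF_LF, and 838, 970.2 and 1428 in HF_HF. In HF_HF 9 of 10 mice lay below every HF_LF mouse and 7 below every LF_HF mouse, and the mouse that did not lie below HF_LF was replicate 1 of cage 10.

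The log2 differences of Cbs were all negative. HF_HF minus HF_LF was -0.38 ± 0.09 (95% interval -0.57 to -0.19), 1.30-fold lower, and -0.44 without HF_HF replicate 1. HF_HF minus LF_HF was -0.38 ± 0.11 (-0.60 to -0.15), and -0.43 without that mouse. HF_LF minus LF_LF was -0.20 ± 0.08 (-0.37 to -0.03) and LF_HF minus LF_LF was -0.21 ± 0.10 (-0.43 to 0.00). The second Cbs probe gave -0.39, -0.38, -0.21 and -0.22 for these 4 contrasts in the same order. HF_LF and LF_HF had nearly the same mean log2 intensity (10.35 and 10.34), between LF_LF (10.55) and HF_HF (9.96).

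Cth, for cystathionine gamma-lyase, which releases cysteine, differed little. Its bright probe ranged from 232 to 636 over all 36 mice, with medians of 468 in LF_LF, 439.9 in LF_HF, 371 in HF_LF and 404 in HF_HF. Its 4 log2 differences lay between -0.08 ± 0.14 and 0.04 ± 0.14, each with an interval that held 0. The second Cth probe, at 50.5 to 67.8, was too dim to be tested.

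Of the methionine cycle pair, Mat1a was bright and steady and Ahcy was slightly higher on HF. Mat1a ranged from 17371 to 23729 over all mice. Its maternal differences were 0.11 ± 0.04 on LF (95% interval 0.02 to 0.19) and 0.12 ± 0.06 on HF (-0.01 to 0.25), and its post-weaning differences were -0.09 ± 0.05 and -0.08 ± 0.05. On LF 5 of 9 HF_LF mice lay above every LF_LF mouse. Ahcy medians were 765 in LF_LF, 828 in LF_HF, 717 in HF_LF and 806 in HF_HF. Its post-weaning differences were 0.24 ± 0.11 from LF dams (0.01 to 0.47) and 0.23 ± 0.11 from HF dams (0.00 to 0.46), against maternal differences of 0.00 ± 0.11 and -0.01 ± 0.11.

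No gene of the methyl acceptor enzymes, Gnmt and Gamt, was called in any comparison. Gnmt, whose product takes up methyl groups when methionine is plentiful, was measured by a pair of probes. The brighter had medians of 17772 in LF_LF, 17362 in LF_HF, 17772 in HF_LF and 14693 in HF_HF, and all 10 HF_HF mice lay below the HF_LF median. Its log2 difference between these groups was -0.20 ± 0.08 (95% interval -0.36 to -0.03), and that of the other probe was -0.19 ± 0.11. The remaining Gnmt differences, between -0.15 and -0.10 on the brighter probe, all had intervals that held 0. Gamt, whose product makes creatine, had medians of 1638 in LF_LF, 1597 in LF_HF, 1428 in HF_LF and 1532 in HF_HF. Its largest difference was -0.25 ± 0.14 for HF_HF minus LF_HF (-0.55 to 0.04), and -0.14 without HF_HF replicate 1. HF_HF minus HF_LF was -0.02 ± 0.15, and 0.09 without that mouse.

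**Figure D2:**
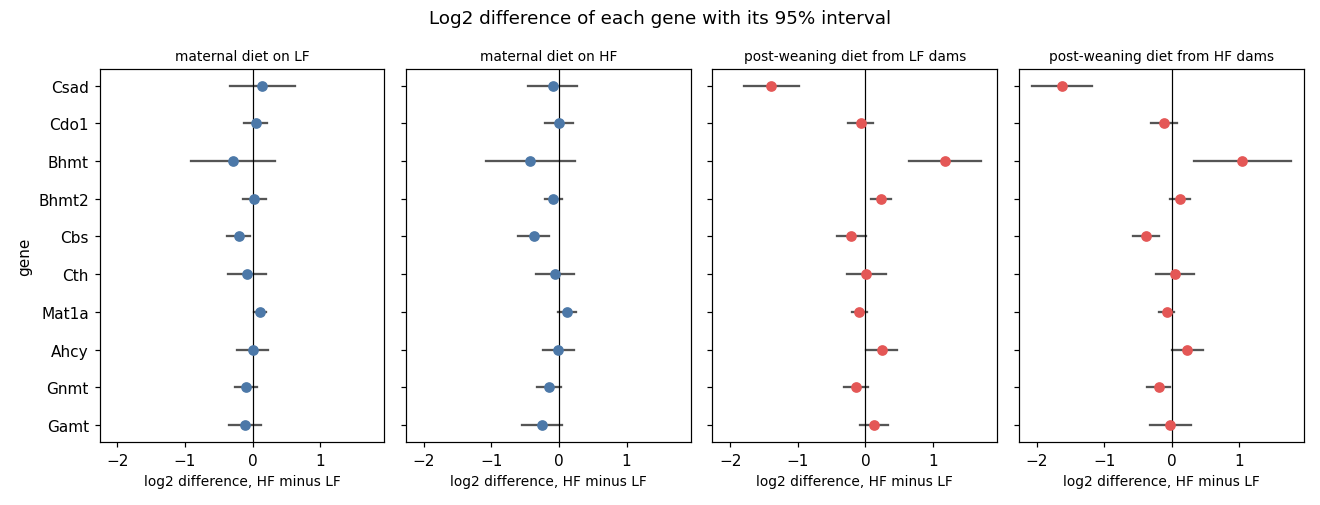
Log2 difference of each of the 10 genes (HF minus LF) for the maternal diet on each post-weaning diet and the post-weaning diet from each kind of dam; points are limma estimates and lines 95% intervals. Csad (-1.39 and -1.63) and Bhmt (1.18 and 1.04) stand farthest from 0 in the post-weaning panels.

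Counts at a false discovery rate of 5% in limma, adjusted over all 12289 probes, are given here only as a description, since the genes were selected on these contrasts. Between post-weaning diets in pups of LF dams 2 of 10 genes were called, Csad (lower) and Bhmt (higher), beside 3.06% of all probes. In pups of HF dams 2 were called, Csad and Cbs (both lower), beside 11.3% of all probes, and Csad was the 1 gene of 10 without overlap between groups, beside 0.854% of all probes. Bhmt there had an estimate of similar size with a wider error and was not called. Calls depended on how birth cages were treated. With the cage as a fixed block, 0 genes were called from LF dams, and Csad and Bhmt but not Cbs from HF dams, while with 1 mean per cage and group Csad alone was called in both. For maternal diet no gene of the 10 was called on LF (0% of probes, although 803 of them had an unadjusted p under 0.05) or on HF (0.269%). Nor was any called for the interaction, that is the difference between the post-weaning effects of the dam groups (0% of probes called, 776 with an unadjusted p under 0.05). The interaction estimates were -0.24 ± 0.31 for Csad, -0.13 ± 0.47 for Bhmt and -0.17 ± 0.14 for Cbs, and their intervals held 0.

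Over the 10 genes the median log2 difference was -0.03 for post-weaning diet from LF dams and -0.05 from HF dams, against 0.00 and -0.01 over all tested probes. For maternal diet it was -0.04 on LF and -0.09 on HF, against 0.00 and -0.01. For the post-weaning diet the estimates of 5 of 10 genes were above 0 from LF dams and of 4 of 10 from HF dams, most of them not called.

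Within birth cages that held both post-weaning diets, cage mates could be set side by side. They are called littermates here, but the study mated 2 females per cage, so a cage may hold pups of both. Csad was lower in the HF littermates in 5 of 5 cages, with log2 differences from -2.24 to -0.79, and in none of these cages did the intensities of HF and LF littermates overlap. In cage 20, for example, 3 HF pups averaged 682 and the LF pup had 3030.1. Bhmt was higher in the HF littermates in 5 of 5 cages, from 0.83 to 2.43, again with no overlap within a cage. In cage 23 the 3 HF pups averaged 1298 and the 2 LF pups 265. Ahcy was also higher in 5 of 5 cages, from 0.22 to 0.44. With so few pups per diet in a cage, lack of overlap is easily met. The brighter Cbs probe, for example, also lacked overlap in cages 10, 11, 20 and 23, with either sign. The share of all probes without overlap within cages was not computed.

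Cbs did not keep one sign among littermates, with 3 of 5 cages below 0 and a range from -0.46 to 0.28 on the brighter probe. In cage 4 the brighter probe gave 0.05 and the second -0.12. On the second probe only cage 10 lay above 0 (0.29). The cage above 0 by most was cage 10, whose single HF pup is HF_HF replicate 1. In that cage the Gamt intensity was 718 in the HF pup and 1438 on average in its 2 LF littermates, and Cdo1 had the highest difference of the 5 cages (0.60). These cages are part of the groups above, and so are not separate evidence.

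**Figure D3:**
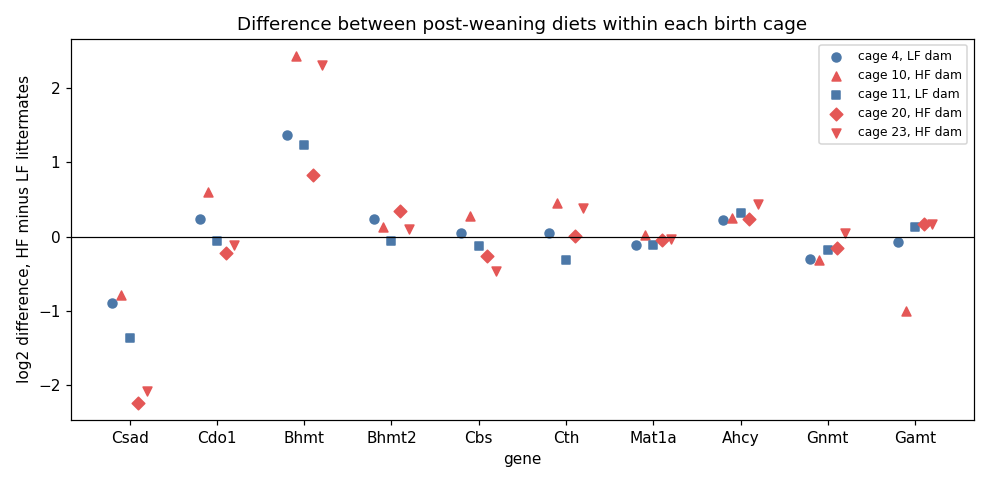
Log2 difference in mean log2 intensity between HF and LF pups of the same birth cage, for each gene in the 5 birth cages with pups on each diet (2 from LF dams, 3 from HF dams). Csad lies below 0 (-2.24 to -0.79) and Bhmt above 0 (0.83 to 2.43) in all 5 cages.

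The genes differed in how much mice of a group varied. As the genes were chosen with results of these arrays known, these ranks are only a description. The within-group SD was 0.76 log2 units for Bhmt, above 99.8% of tested probes, and 0.50 for Csad, above 99.3%. Cth (0.33), Gamt (0.30) and Ahcy (0.26) were also above at least 92.7% of probes, whereas Mat1a (0.10) lay at 14.1% and below the median of all probes (0.14).

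Part of the spread of Bhmt ran along birth cages. Whether cage mates also shared a slide could not be checked. The correlation between cage mates, with group means removed, was 0.54 for Bhmt, higher than for 98.7% of probes, and 0.39 for Cbs (93.7%), against a median of 0.04 over all tested probes. Without HF_HF replicate 1 the values were 0.43 for Bhmt and 0.49 for Cbs. Csad, as variable as it was, had a cage correlation of -0.11. In HF_HF the 3 pups of cage 20 had 439.9 to 662 for Bhmt, while those of cage 23 had 1218 to 1363 and those of cage 21 had 823 to 1904. In HF_LF the pup of cage 20 had 290.1 and the 2 of cage 23 had 214 and 317, below all pups of the other 3 cages. Cage 11 had the highest cage mean of LF dams on either diet, at 945 in LF_LF and 2281 in LF_HF.

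**Figure D4:**
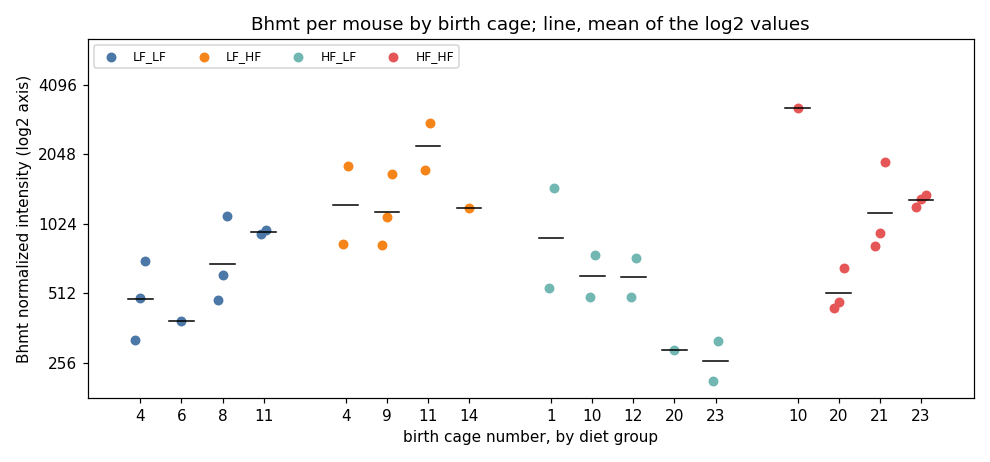
Bhmt normalized intensity (log2 axis) per mouse, arranged by birth cage within each diet group; lines are means of log2 values. Mice of a cage lie near each other in several cages, as in cage 20 on HF (439.9 to 662) and cage 23 on HF (1218 to 1363).

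**Figure D5:**
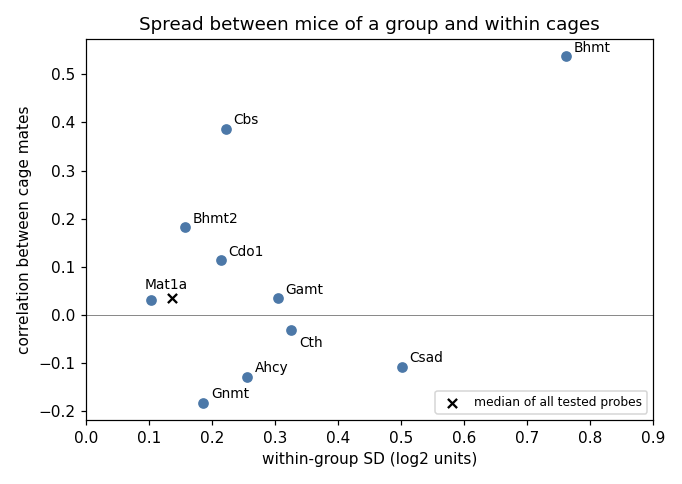
Within-group SD (log2 units) against the correlation between cage mates for the 10 genes; the cross is the median of all tested probes (0.136 and 0.0353). Bhmt (0.761 and 0.538) lies highest on both axes, and Csad (0.501) has wide spread without a positive cage correlation (-0.109).

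Whether members varied with the animals' size or glucose was tested on deviations from group means over 36 mice, with permutation within groups. Single mice were permuted whatever their birth cage. Where values run along cages, as those of Bhmt did, such a p can be too small. None of 30 relations to weight at 3 weeks, a second recorded weight (labelled as at weaning, but 20.4 to 34.1 g against 8.04 to 13.4 g at 3 weeks, so that its age is uncertain) or blood glucose passed after Benjamini-Hochberg adjustment, and 2 had an unadjusted p under 0.05. The strongest was lower Bhmt in heavier 3-week-old pups (Pearson r = -0.52, permutation p = 0.0025, adjusted p = 0.076; Spearman rho = -0.51, p = 0.0032, adjusted p = 0.095). Without the 2 mice farthest from the median weight r was -0.51 (adjusted p = 0.12), and r was negative in each of the 4 groups (-0.26 in LF_LF, -0.36 in LF_HF, -0.64 in HF_LF and -0.66 in HF_HF, each over 8 to 10 mice). Among mice of the same cage and group r was -0.27 (permutation p = 0.23, 32 mice). On deviations from group means without HF_HF replicate 1 (35 mice), r was -0.54 (permutation, adjusted p = 0.045).

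Between the 10 genes, 0 of 45 pairs passed within groups, and 6 had an unadjusted p under 0.05. The 3 pairs with the lowest adjusted p (0.069 each, by permutation) were Cdo1 with Bhmt (r = 0.53, rho = 0.49), Cdo1 with Gamt (r = -0.52, rho = -0.51) and Gnmt with Gamt (r = 0.46, rho = 0.49). Without HF_HF replicate 1, Gnmt with Gamt had r = 0.53 (permutation, adjusted p = 0.098) and Cdo1 with Bhmt r = 0.42 (adjusted p = 0.26), while Cdo1 with Gamt had r = -0.34 (permutation, adjusted p = 0.26), and again 0 of 45 passed. Without the 2 mice farthest from the median of Bhmt (as deviations from group means), the r of Cdo1 with Bhmt was 0.39. Csad with Cdo1 had r = 0.32 (permutation p = 0.071, adjusted p = 0.27).

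Over all 36 mice, with diet differences left in, the gene whose log2 intensity followed Csad most closely was Mgst3 (r = 0.86), for a microsomal glutathione S-transferase, then Slco2a1 (0.85), Agtr1a (0.83), Tmem141 (0.83) and Arrdc4 (0.82). With group means removed their r with Csad was 0.49, 0.64, 0.44, 0.60 and 0.23. For Bhmt the closest was Abat (0.85), for GABA transaminase, then Shmt2 (0.78), Riox2 (0.76), Cpn2 (0.75) and Fmn2 (0.75), and within groups Abat kept r = 0.75. For Cbs they were Smagp (0.79), Tubb4b (0.75), Jade1 (0.74), Elovl5 (0.70) and Slc17a4 (0.70). These are the highest of 8537 genes and the mice share diets and cages, so no p is given.

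Of 77 further genes of sulfur amino acid, choline, folate and methyl metabolism, 56 had a tested probe. They too were listed with earlier results of these data known, so counts and adjusted p of these genes are only a description. None was called for maternal diet on either post-weaning diet or for the interaction. For post-weaning diet 3 rose from LF dams and 11 were called from HF dams, 6 higher and 5 lower, beside 3.06% and 11.3% of all tested probes. With 1 mean per cage and group the counts were 0 and 4. The median log2 difference over the 56 was 0.02 in both.

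Of 13 genes that use taurine or oxidize cysteine, 3 rose and 1 fell on HF in pups of HF dams, and none was called in pups of LF dams. Slc6a6, the taurine transporter, fell by 0.48 ± 0.11 on the log2 scale (adjusted p = 0.0053), with an intensity of 1686 to 3519 in HF_LF and 1568 to 1920.1 in HF_HF. Its call was lost without cage 23 (adjusted p = 0.060). Mpst, for mercaptopyruvate sulfurtransferase, rose by 0.60 ± 0.12 (adjusted p = 0.0016), from a median of 152 to one of 221. Suox, for sulfite oxidase, rose by 0.30 ± 0.08 (adjusted p = 0.016) and Slc27a5, for the enzyme that activates bile acids before taurine is joined to them, by 0.19 ± 0.06 (adjusted p = 0.035). Suox was no longer called without cage 21 or cage 23, and Slc27a5 in 14 of 25 fits that left out 1 mouse or 1 cage.

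Of 10 folate and glycine genes, 3 rose on HF from LF dams, and 1 rose and 2 fell from HF dams. Shmt2, the mitochondrial serine hydroxymethyltransferase, rose in both, by 0.39 ± 0.06 (adjusted p = 0.0020) and 0.41 ± 0.07 (adjusted p = 0.00074). Its intensity was 396 to 527 in LF_LF and 550.0 to 696 in LF_HF, without overlap, and 377 to 543 in HF_LF and 519.9 to 699 in HF_HF. The share of all probes without overlap was not computed for pups of LF dams. None of the 3 calls from LF dams held with 1 mean per cage and group or with the cage as a fixed block. The Shmt2 call from HF dams held in both. A second, dimmer Shmt2 probe gave 0.03 and 0.15 and was not called. Gldc, of the glycine cleavage system, rose by 0.41 ± 0.09 from LF dams (adjusted p = 0.011, second probe 0.33), and lost the call without cage 8 or cage 9. Aldh1l1, for a formyltetrahydrofolate dehydrogenase, rose by 0.35 ± 0.09 (adjusted p = 0.035), with 2 of its other 3 probes also called, and lost the call in 13 of the fits that left out 1 mouse or 1 cage. From HF dams Slc25a32, the mitochondrial folate carrier, fell by 0.29 ± 0.05 (adjusted p = 0.0011), and Tyms, for thymidylate synthase, by 0.19 ± 0.05 (adjusted p = 0.013, second probe not called, call lost without cage 21 or cage 23).

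Of 10 choline and betaine genes, Dmgdh rose by 0.44 ± 0.14 (adjusted p = 0.047) and Pcyt2, of phosphatidylethanolamine synthesis, fell by 0.35 ± 0.07 (adjusted p = 0.0033, both other probes also called, call lost without cage 23) in pups of HF dams. The Dmgdh intensity was 165 to 238 in HF_LF and 188 to 512 in HF_HF, and its call was lost in 18 of 25 fits that left out a mouse or a cage. Of 8 genes for creatine and other methyl transfer, Nnmt, which methylates nicotinamide, rose by 1.03 ± 0.26 (adjusted p = 0.012, second probe 1.33, call lost without cage 20 or cage 21) and Slc6a8, the creatine transporter, fell by 0.38 ± 0.06 (adjusted p = 0.00055). None of 5 genes of glutathione synthesis or of 10 of methionine salvage and polyamines was called in any comparison.

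Other liver genes moved with the same contrasts. The lists used here were chosen with earlier results of these data known, so their counts and adjusted p are only a description. All 7 listed acute phase genes rose on HF in pups of HF dams, beside 11.3% of all probes called. Among them were Saa1 by 2.55 ± 0.47, Saa2 by 2.22 ± 0.46 and Lcn2 by 3.16 ± 0.71 (limma, adjusted p = 0.0012, 0.0031 and 0.0053). In pups of LF dams 0 of 7 were called, beside 3.06% of all probes, and all 7 estimates were above 0. The summed intensity of the list was 34187 to 51352 in HF_LF, 41039 to 106684 in HF_HF, 35227 to 65558 in LF_LF and 37799 to 78255 in LF_HF. Within groups the list's mean log2 intensity was related to none of the 10 genes after adjustment (0 of 10, 2 with an unadjusted p under 0.05). The 2 were Cth (r = -0.37, rho = -0.31, permutation p = 0.0375, adjusted p = 0.21) and Csad (r = -0.33, rho = -0.27, permutation p = 0.042, adjusted p = 0.21). The groups differed, with r for Csad at -0.78 in LF_LF, 0.115 in LF_HF, -0.73 in HF_LF and -0.18 in HF_HF. For Cth it was -0.91, 0.09, -0.25 and -0.38 in the same order. The part of the acute phase list in the differences between groups was not tested.

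The markers named next were picked after their values were seen. Of 6 pericentral hepatocyte markers, Slc1a2 and Cyp1a2 rose with post-weaning HF from both kinds of dam (0.40 ± 0.10 and 0.72 ± 0.11 from LF dams, 0.42 ± 0.08 and 0.56 ± 0.13 from HF dams). Over all 6, 4 estimates lay above 0 and 2 below from LF dams, and 3 above and 3 below from HF dams. The 2 of 6 called in each comparison stand beside 3.06% and 11.3% of all probes. The summed level of these markers was 29548 to 37580 in LF_LF, 33412 to 41049 in LF_HF, 31084 to 37936 in HF_LF and 32559 to 45074 in HF_HF. Of 5 periportal markers only Etnppl was called, lower by 1.14 ± 0.19 on HF in pups of HF dams, where 2 of the 5 estimates were above 0. Alas2 and Hba-a1, the 2 erythroid markers tested, went in opposite directions there (0.30 ± 0.09 and -0.48 ± 0.15). No hepatocyte, macrophage, endothelial, stellate, cholangiocyte or lymphocyte marker was called in any of the 5 contrasts, and none of the pancreatic acinar markers on the array was bright enough to be tested. For post-weaning HF from HF dams, all 6 endothelial estimates lay below 0 (-0.27 to -0.07). Of the 5 stellate estimates there, 4 lay below 0 and 1 above. From LF dams 4 endothelial estimates lay below 0 and 2 above, and 3 stellate estimates below and 2 above. The part of these genes in the differences above was not tested.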

How the data were processed

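Liver RNA of 36 mice was hybridized to 1-colour beadchips, 1 array per mouse. The paper describes more liver arrays, with equal numbers per group, normalized together. Those beyond the 36 were not in the values used here. The authors exported fluorescence with BeadStudio, per the labels, and quantile-normalized it, so the deposited intensity values of all arrays share 1 distribution (45.7 to 32949, equal at each rank within 1 unit). No background was subtracted, which compresses the differences of dim probes. The labels do not give the slide or position of an array, so a slide batch could not be checked. The number of arrays limits precision.

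The deposited intensity was put on the log2 scale. Probes whose median over the arrays reached 71.5, the median of all values, were kept (12289 of 25697). Each of 23978 probes has 1 gene symbol in the platform annotation, 1719 have none, and 8 symbols were updated through RefSeq. Pairs of groups were compared with limma 3.58.1 in R 4.3.3 (lmFit and eBayes with a variance trend), and the interaction was fitted over all 36 mice, with Benjamini-Hochberg adjustment over all kept probes at 5%. The fits were tested on simulated data. A gene is represented by its probe of highest mean. Values ± are SE. Relations within groups, and among mice of the same cage and group, used 100000 permutations. Those within groups moved single mice and did not keep cage mates together, also for pairs of genes and the acute phase list. The 10 genes and all lists were chosen with earlier results of these data known, so no p is given for a single one of the 10 in a comparison of groups. Named genes were the 10, up to 4 called genes of largest difference per list and comparison, the 5 most alike genes, and the first markers of a list that moved.

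Alternatives were no filter, a minimum of 100, a pseudocount of 50, subtraction of the lowest value with an offset of 16, cyclic loess, no variance trend, the birth cage as a random or fixed block, cage means, all groups in 1 fit, and each mouse or cage left out. Relations were repeated without HF_HF replicate 1, and the acute phase relation was added, after the data were seen. Weight and glucose are as the labels give them, except that the weight labelled as at weaning is called the second weight, since it is well above the one labelled 3 weeks.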

Additional observations from a re-analysis of the deposited data

Results flagged for a closer look

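Of 40 combinations of gene and group, 6 had a mouse far from its group by Dixon's ratio of the gap to the nearest mouse over the group's range, on the log2 scale. By chance about 1 in 20 groups would be singled out. HF_HF replicate 1 of cage 10 was the highest for Cbs (1428 against 1075 for the next mouse, ratio 0.533) and the lowest for Gamt (718 against 1234, ratio 0.532). The other 4 were different mice. Bhmt2 was high in LF_LF replicate 9 (4469 against 3477, ratio 0.585) and in HF_HF replicate 8 (4482 against 3811, ratio 0.552). Cth was low in LF_LF replicate 6 (232 against 397, ratio 0.635), and Ahcy was high in LF_HF replicate 5 (1289 against 898, ratio 0.592).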

How the results depend on the processing

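Csad was called in both post-weaning comparisons under every alternative except the birth cage as a fixed block in pups of LF dams, where 0 of the 10 genes were called (log2 difference of Csad -1.11). With 1 mean per cage and group, Csad alone was called from LF dams (1 gene) and from HF dams (1 gene). Leaving out each mouse or cage gave 1 to 3 called genes in both comparisons. Bhmt lost its call from LF dams without cage 4, Cbs lost its call from HF dams without cage 21 or cage 23, Bhmt2 was added from LF dams without LF_LF replicate 9 or cage 11, and Gnmt was added without HF_LF replicate 4. In pups of HF dams Bhmt was added in 8 fits (without HF_LF replicate 1, 3 or 9, HF_HF replicate 5, 6 or 7, cage 1 or cage 20), and with the minimum of 100, the random block, all groups in 1 fit or the fixed block. Under the fixed block its difference was 1.92 and Cbs was not called. The other 474 estimates of a member's log2 difference under other settings, and all 1130 with a mouse or cage left out, stayed within 1 within-group SD.

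Of the 56 pathway genes, 0 were called from LF dams with cage means or the fixed block, and 4 from HF dams with cage means. Leaving out each mouse or cage gave 1 (without cage 8 or cage 9) to 5 (without cage 4) from LF dams, and 5 (without cage 23) to 14 (without HF_HF replicate 1) from HF dams, with 6 without cage 21. The relations to weight and glucose that passed numbered 0 to 1 without HF_HF replicate 1. No member was called for maternal diet or the interaction under any alternative. No paired analysis was possible because replicate numbers follow deposit order and tie no mice together, other than the pairing of littermates through the birth cage, as the fixed block above. The lowest intensities are array background, so folds of dim probes are understated.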
